A study of Ovis aries with 6 samples.

Results

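Macrophages and microglia, the resident phagocytes of tissues and of the brain, were followed through 10 genes that mark them: CSF1R, TYROBP, AIF1, C1QA, C1QB, C1QC, CD163, CD68, CTSS and CD74. A gene was taken where its row ID in the deposited count and TPM tables, after removal of the prefix, was one of these symbols. This rule found 9 of the 10 genes among 26067 features with values, and CD163, a scavenger receptor for haemoglobin bound to haptoglobin, was not analysed here. The data are full-length complementary DNA reads of total RNA from Ovis aries, sequenced with Oxford Nanopore kits in 6 libraries named C1 to C6, all given as pituitary. According to the design text, 3 sheep were small-tailed Han, the high-reproduction breed, and 3 were Wadi, the low-reproduction breed, but the labels place none of the libraries in a breed and give no age, sex or treatment. Levels are therefore given library by library, and nothing was tested between breeds.

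CSF1R is the receptor through which the growth factors CSF1 and IL34 keep macrophages and microglia alive. TYROBP (also called DAP12) carries the signal of surface receptors such as TREM2, and C1QA, C1QB and C1QC encode the chains of C1q, the molecule that starts the classical complement cascade and that tissue macrophages are a main source of. Engulfed material reaches lysosomes that hold CD68 and the protease cathepsin S (CTSS), and CD74, the invariant chain, escorts MHC class II molecules, from which cathepsin S later trims it. In the pituitary such cells lie between the hormone cells and along the vessels, while the neural lobe, like the brain, holds microglia.

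The libraries held 1981648 to 2732915 rounded gene counts, so that 1 count was worth 0.366 to 0.505 CPM, that is, counts scaled to a library total of 1000000. The intervals below are 95% intervals that cover counting error only, since amplified reads without molecular identifiers are not independent molecules, and no library had a replicate. The tissue label did not hold equally well for the libraries. The 7 pituitary hormone genes PRL, GH, CGA, LHB, FSHB, TSHB and POMC took 14.2, 30.0 and 4.71% of the counts of C4 to C6, but at most 0.0139% in C1 to C3. The 9 listed genes of cerebellar neurons summed to 4391, 4383 and 4033 CPM in C1 to C3 and to 29.3, 13.6 and 100.4 CPM in C4 to C6. In C6 the 4 Schwann cell genes with a row summed to 7304 CPM, against at most 75.7 CPM elsewhere, and the 3 oligodendrocyte genes to 3221 CPM, against at most 169.8 CPM. Results are given below both over the 6 libraries and over C4 to C6 alone.

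All 9 genes differed between libraries. They were tested with every feature that had at least 60 counts over the libraries, by a chi-square test of homogeneity with Benjamini-Hochberg adjustment, and called where the adjusted p was under 0.05 and the highest library had at least 2 times the CPM of the lowest. The test compares libraries, not conditions. Of all 13248 features tested, 80.9% were called, so a count of 9 of 9 lies near what the data show everywhere. CSF1R and C1QA reached 60 counts only with those of their highest library, with 54 counts outside C6 and 56 outside C5, so their call was in part fixed by the filter. The same reading applies to the gene lists below, whose members called are to be set against 80.9% of all features tested, and highest in C6, C5 or C4 against the shares given here. Some genes of these lists also reached 60 counts only with those of their highest library. The median log2 ratio of highest to lowest library was 3.29 over the 9 genes, against 2.11 over all features tested. CSF1R, TYROBP, AIF1 and CTSS had their highest level in C6, C1QA, C1QB, C1QC and CD74 in C5, and CD68 in C4. Among all features tested, 17% were called with their highest level in C6, 9.42% in C5 and 11.4% in C4. In CPM the lowest library was C3 for 8 of the 9 genes and C2 for C1QC. Of all features tested, 5.49% were called and lowest in C3 and 10% in C2. This count does not set C3 apart from C1, since the difference between C3 and C1 lay within counting error for all 9 genes. In the authors' TPM, C1 was the lowest library for C1QB, CD68 and CTSS. C5 was the lowest library for none of the 9, whereas 28.6% of all features tested were called and lowest there. Fewer macrophages in a piece of tissue and less of an RNA in each macrophage give the same reading in such bulk samples.

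**Figure D1:**
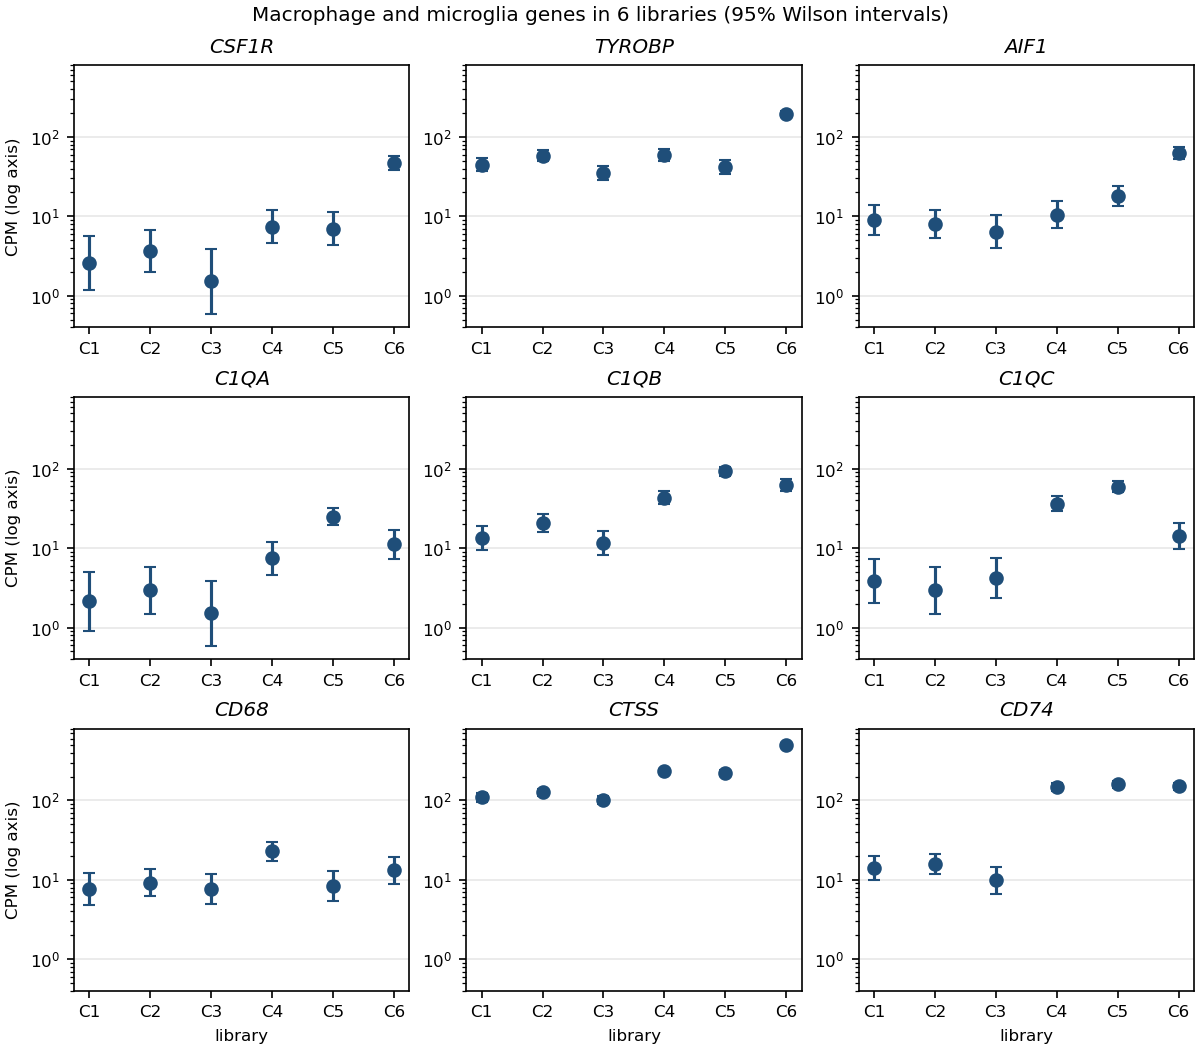
Level of each of the 9 genes in the libraries C1 to C6 in CPM on a log axis, with 95% Wilson intervals for counting error. CSF1R, TYROBP and AIF1 stand out in C6, the 3 C1q genes are highest in C5, and CD74 lies between 147 and 159.9 CPM in C4 to C6 and between 9.84 and 15.7 CPM in C1 to C3.

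CSF1R was high in C6 and low in the other libraries. It had 6, 10, 4, 17, 17 and 93 counts in C1 to C6, which is 2.57, 3.66, 1.51, 7.44, 7.03 and 46.9 CPM. C6 was far above the other 5 libraries, at 6.31 times the level of C4, the next highest (95% interval 3.73 to 11.3). From C4 downward no neighbours in the order of levels were separated, since each interval for their ratio included 1. Libraries further apart in that order were separated in part. C4 was 4.92 times above C3 (1.60 to 20.1) and 2.89 times above C1 (1.09 to 8.96). C5 was 4.64 times above C3 (1.51 to 19.0) and 2.73 times above C1 (1.03 to 8.46). Neither C4 nor C5 was separated from C2. The ratio of C6 to C3, the lowest, was 31.0 (11.7 to 116). IL34, the receptor's ligand made by neurons and other tissue cells, was at 103, 84.5, 105, 63.5, 58.3 and 135 CPM and thus at most 2.31 times higher in one library than in another (1.88 to 2.86). CSF1, the other ligand, had 0, 0, 0, 8, 2 and 10 counts, too few for the test. There were 0.0144 to 0.0433 counts of CSF1R per IL34 count in C1 to C3, 0.117 in C4, 0.121 in C5 and 0.348 in C6 (0.272 to 0.443). Among the ligands and signalling partners of the receptor, 6 of 14 genes were measured, meaning that they reached 60 counts, and 3 were called. Besides IL34 these were INPP5D, the lipid phosphatase SHIP1, at 50.5 CPM in C6 and 9.00 to 15.8 CPM elsewhere, and the transcription factor RUNX1, at 14.0 CPM in C4 and 0.858 CPM in C1. RUNX1 had 55 counts outside C4 and reached 60 only with those of C4. Without the hormone genes in the totals the ratio of IL34 was 1.91 (1.56 to 2.36), under the minimum of 2, and its call was lost. Without C6, 1 gene of the list was called.

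TYROBP was also highest in C6, with smaller differences in CPM among the other libraries. Its counts were 104, 158, 92, 135, 101 and 386, or 44.6, 57.8, 34.8, 59.1, 41.7 and 195 CPM. C6 exceeded C4 by 3.30 times (2.70 to 4.04), while the other 5 libraries lay within a ratio of 1.70 of each other in CPM. Some of these 5 were still separated, such as C4 from C3 (1.70 times, 1.29 to 2.24) and C5 from C4 (0.706 times, 0.540 to 0.921). In TPM these 5 libraries ran from 23.0 in C3 to 73.2 in C4. On the CPM scale and under both TMM and DESeq2 scaling, C5 lay below C2 for TYROBP. In the authors' TPM values, and with the hormone genes taken out of the totals, C5 lay above C2, so the order of these libraries depends on the scaling. Of 12 receptors and signalling partners of TYROBP, 2 were measured and both were called, in opposite directions. TREM2, the lipid receptor of microglia that signals through TYROBP, had 12, 25, 4, 2, 2 and 89 counts and was 4.91 times higher in C6 than in C2, the next library (3.12 to 7.99), although its 45 counts outside C6 would not have reached the minimum. LYN, a Src family kinase of leukocytes that neurons also express, was at 63.0, 65.9 and 54.5 CPM in C1 to C3 and at 5.55 to 7.88 CPM in C4 to C6. TREM1, CLEC5A and SYK, a receptor pair and the kinase downstream, had at most 3 counts in any library, and without C6 1 gene of the list was called.

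AIF1 encodes IBA1, the actin-binding protein used to stain microglia. The gene was at 9.00, 8.05, 6.43, 10.5, 18.2 and 63.1 CPM, from 21, 22, 17, 24, 44 and 125 counts. Again C6 was highest, 3.47 times above C5 (2.44 to 5.01), and C5 was 1.73 times above C4 (1.03 to 2.98), whereas from C4 downward no neighbours were separated. In the RefSeq table AIF1 overlaps LST1 and NCR3, and the use of strand in the authors' counting is not given in the sources used here, so reads of these genes cannot be told apart with certainty. LST1 had 12 to 39 counts and NCR3 2 to 7 counts per library. Both were also highest in C6, LST1 at 19.7 CPM against 4.39 to 9.63 CPM elsewhere and NCR3 at 3.53 against 0.757 to 1.65 CPM. Their part in the counts of AIF1 was not tested.

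The C1q genes had a different highest library, C5. C1QB, the most abundant, was at 13.3, 20.5, 11.7, 43.3, 93.0 and 63.1 CPM. All neighbours from C5 down to C2 were separated, with C5 1.47 times above C6 (1.18 to 1.85), C6 1.46 times above C4 (1.11 to 1.91) and C4 2.11 times above C2 (1.51 to 2.99). C1QA followed nearly the same pattern at a lower level, with 5, 8, 4, 17, 60 and 22 counts, or 2.14, 2.93, 1.51, 7.44, 24.8 and 11.1 CPM. The centred log2(CPM + 1) profiles of C1QA and C1QB differed by a root mean square of 0.20, the smallest of the 36 pairs among the 9 genes. C1QC was at 3.86, 2.93, 4.16, 36.3, 59.5 and 14.1 CPM. It thus placed C4 above C6, by 2.57 times (1.66 to 4.10), where C1QB placed C6 above C4.

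The 3 chains are used in equal numbers in the C1q protein, and their genes lie close together in the RefSeq table, so their ratio within a library was also examined. C1QC had 0.838 counts per C1QB count in C4 (0.619 to 1.13), 0.640 in C5 (0.516 to 0.792) and 0.224 in C6 (0.143 to 0.340). The interval of C6 does not overlap those of C4 and C5. In C1 to C3 the ratio was 0.290, 0.143 and 0.355, from 9, 8 and 11 counts of C1QC, with intervals from 0.0588 to 0.725. The ratio of C1QA to C1QB held steadier, at 0.129 to 0.267, and its intervals overlapped in all 6 libraries. In the authors' TPM, the C1QC to C1QB ratios were 0.850, 0.651 and 0.226 in C4 to C6, so that the scale of the values hardly moved them. These ratios were examined after the counts were seen.

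Further genes of the complement cascade spread over C4 and C6. Of 23 genes, 12 were measured and all 12 were called, near the 80.9% of all features tested. These were 6 with their highest level in C6, 4 in C4, 1 in C5 and 1 in C3. Of the 6 in C6, 4 lay above the next library beyond counting error. C1R and C1S, the proteases that join C1q in the C1 complex, were highest in C4, at 32.8 and 31.1 CPM, and at most 2.20 CPM in C1 to C3. SERPING1, the inhibitor of these proteases, was at 40.7, 12.8 and 14.6 CPM in C4 to C6 and had 1, 0 and 2 counts in C1 to C3. It was at least 37.1-fold higher in C4 than in C2, with the 0 counts of C2 set to 3. Collagen and other genes of fibroblasts and pericytes, which also make C1R, C1S and SERPING1, summed to 1451, 164 and 1049.6 CPM in C4 to C6, against 84.5 to 204 CPM in C1 to C3. Their part in the result was not tested. CFI, a protease that inactivates complement, was at 144 CPM in C6 and 8.68 CPM in C5, and CD59, a surface inhibitor of the membrane attack complex, at 513 and 139 CPM in the same libraries.

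The lysosomal genes CTSS and CD68 differed from each other. CTSS, the most abundant of the 9 genes by counts, had 255, 346, 270, 529, 539 and 998 counts, or 109, 127, 102, 232, 223 and 504 CPM. C6 was 2.17 times above C4 (1.96 to 2.42), C4 and C5 were not separated, and C5 was 1.76 times above C2 (1.53 to 2.02). CD68 had its highest level in C4, with 7.72, 9.15, 7.57, 22.8, 8.27 and 13.1 CPM, 1.73 times above C6 (1.06 to 2.89). The remaining libraries were not separated from their neighbours, and C5 lay below C2. Without C4 the ratio of highest to lowest library of CD68 was 1.73, under the minimum of 2, and the gene was no longer called. CD68 overlaps EIF4A1 and SOX15 in the RefSeq table. EIF4A1, a translation factor, was also highest in C4, with 24, 17, 30, 119, 99 and 52 counts, and its part in the counts of CD68 was not tested.

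Of 24 lysosomal enzymes and membrane proteins, 18 were measured and 16 were called, 11 with their highest level in C6, 3 in C4 and 2 in C2. PSAP, the precursor of the saposins, was at 194, 114, 153, 274, 293 and 679 CPM. NPC2, which carries cholesterol out of lysosomes, was at 3.86, 4.03, 6.81, 12.7, 21.5 and 73.2 CPM. Cathepsin D (CTSD) had 5, 1 and 4 counts in C1 to C3 and was at 46.8, 38.4 and 93.4 CPM in C4 to C6. CST3, the secreted cathepsin inhibitor cystatin C, was lowest in C4 and C5, at 1150.5, 1434, 1307, 689, 534 and 1347 CPM. Many cell types express these lysosomal genes.

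CD74 was low in C1 to C3 and level among C4 to C6. It had 33, 43, 26, 336, 387 and 297 counts, or 14.2, 15.7, 9.84, 147, 159.9 and 149.9 CPM. C5, C6 and C4 were not separated, with ratios of 1.07 (0.915 to 1.25) and 1.02 (0.869 to 1.19) between neighbours, while C4 was 9.35 times above C2 (6.79 to 13.2). Among C4 to C6 alone, CD74 was the gene that was not called, with a ratio of 1.09, and the other 8 were called. In these libraries CSF1R had 17, 17 and 93 counts, C1QA 17, 60 and 22, and CD68 52, 20 and 26. Each of these genes reached 60 counts only with those of its highest library, so its call was in part fixed by the filter. Of 9166 features tested in these 3 libraries, 40.2% were called. The median log2 ratio there was 1.74 over the 9 genes and 0.83 over all features tested. CSF1R, TYROBP, AIF1 and CTSS were highest in C6 and C1QA, C1QB and C1QC in C5 in this comparison too, where 19.6% of features were called and highest in C6 and 7.63% in C5.

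The class II chains that CD74 escorts showed the same division. The rows of 3 chains were found through synonyms in the RefSeq table, after the values of CD74 were known: LOC101109747, listed there as DRA, OVAR-DRB1 and DQA. DRA was at 38.6, 53.1, 39.0, 488, 474 and 317 CPM, DRB1 at 13.7, 11.7, 8.70, 128, 128 and 160.0 CPM, and DQA at 9.00, 12.1, 6.05, 113, 69.4 and 58.0 CPM. All 3 were called over the 6 libraries, and none was called among C4 to C6. They were not level there, since DQA was 1.95 times higher in C4 than in C6 (1.56 to 2.45), just under the minimum ratio of 2, and DRA 1.54 times (1.39 to 1.70), while DRB1 was lower in C4 than in C6, at 0.799 times, with an interval below 1. DRA had 2.73, 3.37, 3.96, 3.32, 2.97 and 2.12 counts per CD74 count, with overlapping intervals in C1 to C5. The interval of C6 (1.84 to 2.44) lay below those of C3, C4 and C5 and overlapped those of C1 and C2. DRB1 had 0.744 to 1.07 counts per CD74 count, with overlapping intervals in all libraries. DQA had 0.768 counts per CD74 count in C4 (0.650 to 0.906), above the 0.434 of C5 (0.360 to 0.522) and the 0.387 of C6 (0.309 to 0.482), and 0.615 to 0.767 in C1 to C3. Sheep class II genes are highly variable between animals and have close relatives, so reads of single chains may have been assigned with error.

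Regulators of class II genes had low counts. Among them RFXANK was called, at 5.15, 3.66, 4.16, 10.5, 7.85 and 12.1 CPM in C1 to C6. It was 3.31 times higher in C6 than in C2 (1.53 to 7.76). CIITA, the master regulator, had 1, 4, 2, 2, 0 and 1 counts, too few for the test, and IFNG, the cytokine that induces it, had at most 1 count. From the list of 24 class II and antigen processing symbols 12 had a row, 5 were measured and 4 were called. IFI30, a lysosomal reductase of antigen-presenting cells, had 1, 2 and 2 counts in C1 to C3 and was at 10.9, 8.68 and 5.55 CPM in C4 to C6. CTSB, the protease cathepsin B, was at 43.9 CPM in C6 and 5.85 to 19.4 CPM elsewhere. MARCHF8, a ubiquitin ligase that removes class II molecules from the surface, was higher in C1 to C3, at 82.8 to 90.8 CPM, than in C4 to C6, at 24.8 to 38.1 CPM. In the interferon gamma and class I list, 9 of 14 genes were measured and all 9 called, beside 80.9% of all features tested. Their highest level was in C4 for 6 of them, beside 11.4% of all features tested that were called and highest there, in C1 for 2 and in C6 for 1. The proteasome subunit PSMB8 was at 111 CPM in C4 and 64.1 CPM in C6, and B2M, the light chain of class I molecules, at 170.2, 258, 282, 1652, 841 and 719 CPM. JAK1 was highest in C1, at 339.6 CPM.

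Shares of the 9 genes in their own sum do not depend on how library totals are scaled, although 34 of the 54 shares moved beyond their counting interval in TPM. The sum was 207, 247, 179.7, 566, 635 and 1059.7 CPM, with a ratio of 5.90 between C6 and C3 (5.33 to 6.53). Without CTSS that ratio was 7.17 (6.17 to 8.36). CTSS took 52.9, 51.2 and 56.8% of the sum in C1 to C3, 40.9 and 35.1% in C4 and C5, and 47.5% in C6. TYROBP took 21.6, 23.4 and 19.4% in C1 to C3, 10.4 and 6.57% in C4 and C5, and 18.4% in C6. CD74 took 5.47 to 6.85% in C1 to C3, 26.0 and 25.2% in C4 and C5, and 14.1% in C6. The 3 C1q genes were most prominent in C5, where C1QB took 14.6% and C1QC 9.37%. In these count shares of TYROBP, CTSS and CD74, C6 lay between C4 and C5 on one side and C1 to C3 on the other. For TYROBP the interval of C6 (16.8 to 20.1%) overlapped those of C1 and C3, and for CTSS (45.4 to 49.7%) those of C1 and C2. In TPM shares C6 kept this middle place for CD74 and not for TYROBP and CTSS. CTSS was at 31.3% of TPM in C6, between 28.0% in C5 and 32.4% in C4. TYROBP was at 42.7% of TPM in C6, within the 40.9 to 45.7% of C1 to C3. For CSF1R, C6 stood apart in count shares, with 4.43% (3.63 to 5.39%) against 0.842 to 1.48% in the other 5 libraries.

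**Figure D2:**
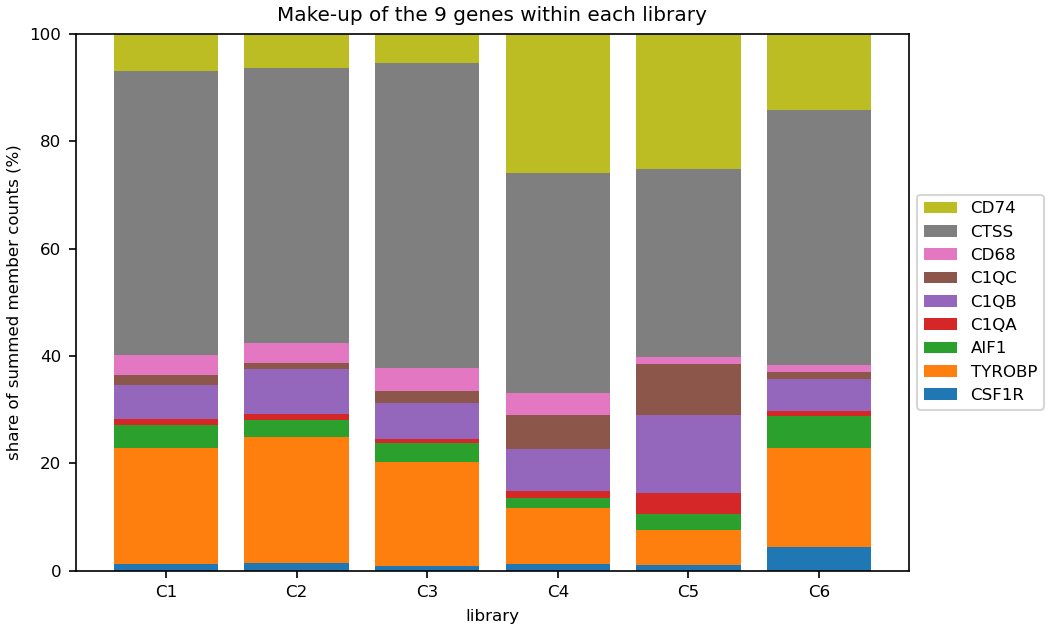
Share of each of the 9 genes in their summed counts, in percent, with 1 stacked bar for each library. CTSS takes 35.1 to 56.8%, CD74 is largest in C4 (26.0%) and C5 (25.2%), and TYROBP is smaller there (10.4 and 6.57%) than in C1, C2, C3 and C6.

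Ratios of 2 genes gave the same picture with their errors. There were 7.73, 8.05 and 10.4 CTSS counts per CD74 count in C1 to C3, 1.57 in C4 (1.37 to 1.81), 1.39 in C5 (1.22 to 1.59) and 3.36 in C6 (2.95 to 3.84). CSF1R had 0.313 counts per CD74 count in C6 (0.245 to 0.397), against 0.0506 in C4 (0.0291 to 0.0822) and 0.0439 in C5 (0.0253 to 0.0713), while C1 to C3, at 0.154 to 0.233, had wide intervals that overlapped that of C6. AIF1 had 0.436 counts per TYROBP count in C5 (0.299 to 0.627) and 0.324 in C6 (0.263 to 0.397), against 0.139 to 0.202 in the other libraries, with intervals that partly overlapped. The order of the genes within a library depended on the scale. The authors' TPM take gene length into account, whereas CPM, here from full-length reads, do not. In TPM, CTSS and TYROBP were the highest 2 of the 9 genes in all 6 libraries, TYROBP first in C1, C2 and C6 and CTSS first in C3, C4 and C5. CSF1R was the lowest in C1 to C5, at 0.0853 to 0.798 TPM, and CD68 was the lowest in C6, at 3.77 TPM, just under CSF1R at 4.05 TPM. In CPM, CD74 lay above TYROBP in C4 (147 against 59.1 CPM) and in C5 (159.9 against 41.7 CPM). CSF1R in C6, at 46.9 CPM, lay above C1QA (11.1), C1QC (14.1) and CD68 (13.1).

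**Figure D3:**
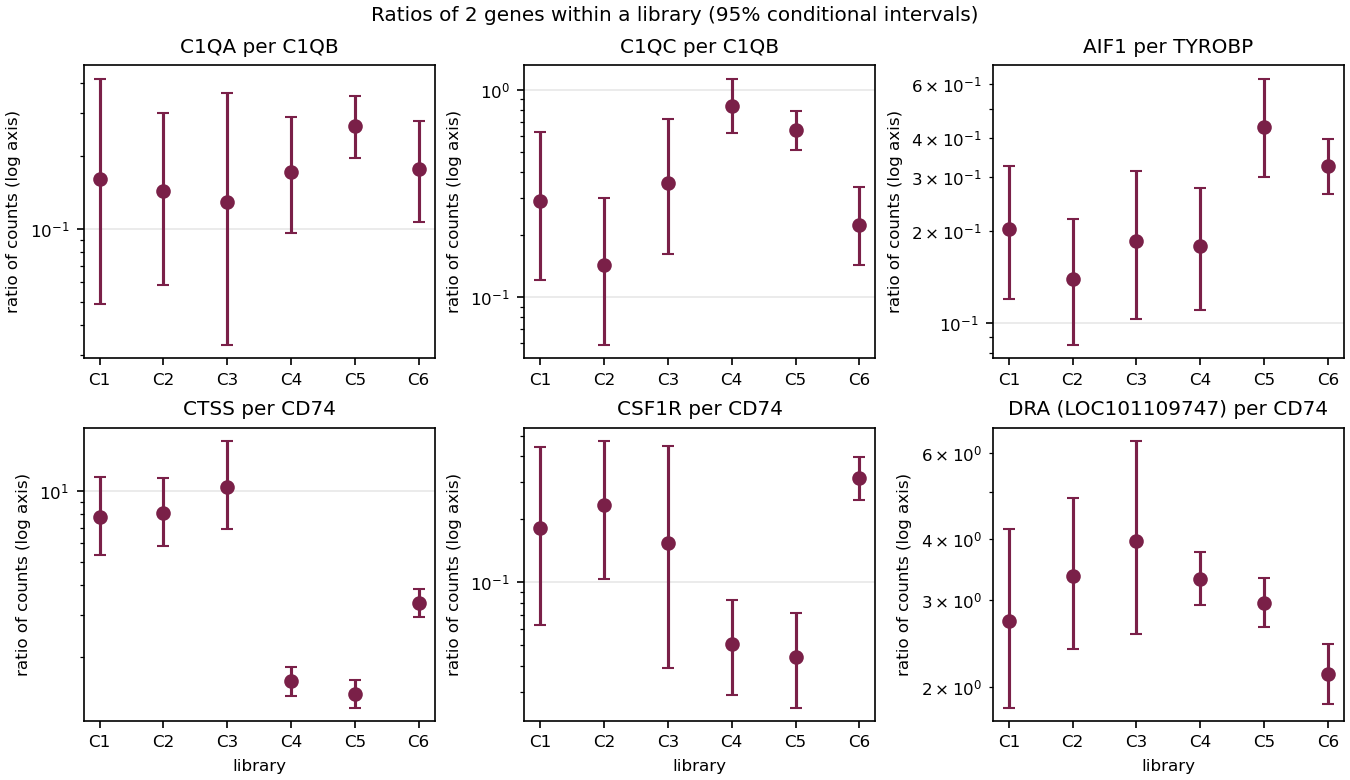
Counts of one gene per count of another in each library, on a log axis, with 95% conditional intervals. C1QC per C1QB is 0.838 in C4 and 0.224 in C6, CTSS per CD74 is at least 7.73 in C1 to C3 and at most 3.36 in C4 to C6, and DRA per CD74 stays between 2.12 and 3.96.

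Genes of brain microglia were high in C6. Of 12 such genes 11 had a row, and 7 were measured, all with their highest level in C6. This count is no support for C6, since 5 of the 7 reached 60 counts only with those of C6. The 2 that did not need C6 were P2RY13, 3.41 times higher in C6 than in C4, the next library (2.10 to 5.73), and OLFML3, 1.40 times higher (1.09 to 1.81). SELPLG, the ligand of selectins, had 7, 9, 13, 1, 8 and 70 counts. The purinergic receptor P2RY13 was at 6.86, 6.22, 5.30, 10.1, 6.20 and 34.3 CPM, and OLFML3, a secreted protein that mural cells also make, had 22, 30, 21, 116, 78 and 141 counts. A further pair of genes was picked out after their values were seen. CX3CR1, the fractalkine receptor, was at 3.43, 4.76, 3.41, 3.94, 2.48 and 26.7 CPM, and TMEM119 had 0, 0, 0, 3, 1 and 17 counts, too few for the test. Without C6, 1 gene of the list was called. The list as a whole summed to 33.7 to 50.1 CPM in C1 to C3, 72.2, 52.5 and 277 CPM in C4 to C6. For CX3CR1 per CSF1R the ratio was 0.570 in C6 (0.399 to 0.807), 0.529 in C4 and 0.353 in C5, with overlapping intervals. TREM2 per CSF1R was 0.957 in C6 (0.707 to 1.29) and 0.118 in both C4 and C5 (0.0132 to 0.496), from 2 TREM2 counts in each.

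Genes of perivascular and other tissue macrophages had their highest sum in C4. Of 13 genes 8 had a row and 4 were measured, and all 4 were called, 2 peaking in C4 and 2 in C6. MRC1, the mannose receptor, was at 0.858, 3.66, 3.78, 26.3, 5.37 and 15.1 CPM, and F13A1, a clotting factor made by such macrophages, at 9.63 CPM in C4, with 0.858 to 6.59 CPM elsewhere. FOLR2, a folate receptor, reached 13.6 CPM in C6, and the endocytic adaptor DAB2 was at 19.7 CPM in C4 and 22.7 CPM in C6. With 44 counts outside C4, F13A1 reached the count minimum only with those of C4, so its call was in part fixed by the filter. F13A1 in C4 was not separated from C2, at 1.46 times (0.749 to 2.89). DAB2 in C6 was not separated from C4, at 1.15 times (0.745 to 1.78). MRC1 and FOLR2 lay above the next library beyond counting error. STAB1 had 0 counts in all libraries, and without C6 2 of the 4 were called. The list summed to 84.0 CPM in C4, 62.1 CPM in C6, 19.0 CPM in C5 and 9.86 to 29.6 CPM in C1 to C3. C5, the library with the highest C1q genes, thus had a level of this list within the range of C1 to C3.

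**Figure D4:**
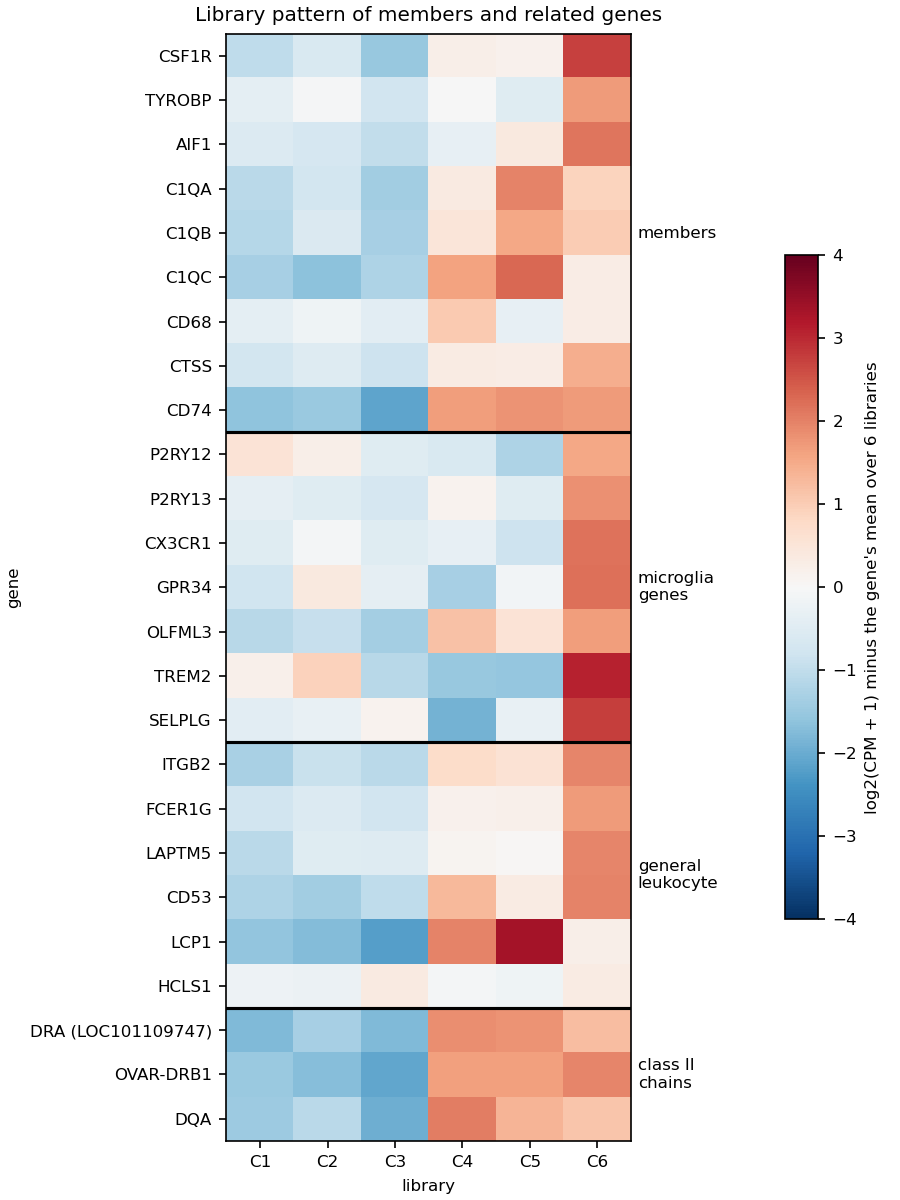
Centred log2(CPM + 1) of the 9 genes, the 7 measured microglia genes, 6 measured general leukocyte genes and 3 class II chains, with 1 column for each library and colour from blue (below the gene's own mean) to red (above it) in log2 units. The microglia genes are red in C6, and the class II chains, like CD74, are red in C4 to C6.

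General leukocyte and macrophage genes stood between these patterns. Of 20 genes 18 had a row, 7 were measured and 6 were called, 4 with their highest level in C6, 1 in C5 and 1 in C4. ITGB2, the beta chain of leukocyte integrins, had 2, 4, 3, 15, 14 and 33 counts, and LAPTM5, a lysosomal protein of leukocytes, was at 13.3, 20.5, 20.1, 31.5, 30.6 and 117 CPM. With 38 counts outside C6, ITGB2 reached 60 only with those of C6, so its call was in part fixed by the filter. LCP1, the actin bundler L-plastin, was highest in C5, at 80.6 CPM, where it was 2.59 times above C4 (1.97 to 3.45), and had 2 to 4 counts in C1 to C3. PTPRC, which encodes the leukocyte antigen CD45, and SPI1, the transcription factor PU.1, were below 60 counts in total.

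Few of the listed genes of other white blood cells were measured. T and NK cell genes summed to 4.29 to 15.5 CPM in C1 to C3 and to 47.3, 62.0 and 39.9 CPM in C4 to C6. Of 14 such genes 3 were measured and called, with CD3G at 17.5, 23.1 and 10.1 CPM in C4 to C6, CD3E at most 10.3 CPM, and CD8B at 14.1 CPM in C6, and 1 was called when any one of C2 to C6 was left out. B and plasma cell genes, which matter here because B cells carry CD74 and class II molecules, summed to 3.00 to 17.0 CPM in C1 to C3, 52.1, 57.0 and 12.1 CPM in C4 to C6. JCHAIN, the joining chain of antibodies, was the 1 measured gene of 9, at 41.6, 40.1 and 10.6 CPM in C4 to C6, and CD79A, CD79B, PAX5 and CD22 had at most 6 counts in any library. The part of B cells in the level of CD74 was not tested. The list of monocyte and neutrophil genes rested on VCAN, the 1 measured gene of 10, which fibroblasts also express, and summed to 20.6 to 33.7 CPM in C1 to C3 and 74.0 to 86.3 CPM in C4 to C6. Dendritic cell genes had 2 measured members of 7, both called. The list summed to 227, 208 and 155 CPM in C1 to C3 and to 9.63, 4.55 and 61.1 CPM in C4 to C6. FLT3 was at 51.5 CPM in C6 and 23.8 to 35.6 CPM in C1 to C3, with 0 counts in C4 and C5, and ZBTB46 at 126 to 188 CPM in C1 to C3 and at most 6.13 CPM in C4 to C6, while CLEC9A, XCR1 and CCR7 had 0 counts in all libraries. Mast cell genes were represented by GATA2, a factor that pituitary cells also use, at 23.6 CPM in both C4 and C5. The mast cell genes CPA3, HDC, MS4A2 and FCER1A had at most 1 count in any library.

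Genes that bear on what macrophages take up were also uneven. For haemoglobin, haem and iron, 8 of 12 genes were measured and all 8 called, 6 with their highest level in C6. Of these 6, only 2 lay above the next library beyond counting error. HBB, a sign of red blood cells, had 28, 46, 51, 84, 1 and 90 counts, so that C5, which was highest for the C1q genes, had the lowest HBB. The ferritin genes went apart, with FTH1 at 4223 CPM in C6 and 701 to 1394 CPM elsewhere and FTL at 113 CPM in C5 and 24.9 CPM in C4. SLC40A1, the iron exporter of macrophages, was at 42.0, 21.9 and 16.1 CPM in C4 to C6 and 4.76 to 6.43 CPM in C1 to C3. Among engulfment receptors and bridging proteins, 10 of 19 were measured and all 10 called, 4 with their highest level in C6, 2 each in C3 and C4, and 1 each in C1 and C2. Of the 4 in C6, 2 lay above the next library beyond counting error. The bridging proteins PROS1 and MFGE8 were highest in C6 (147 CPM) and C4 (211 CPM) and lowest in C5 (5.37 and 4.55 CPM), and ELMO1 and CD47, which neurons express, were highest in C1 (672 CPM) and C3 (114 CPM). Of 16 cytokines and chemokines, 7 were measured and all 7 called, 3 with their highest level in C4, 2 in C3, 1 in C5 and 1 in C6. CXCL10, induced by interferons, had 2, 11, 1, 122, 62 and 24 counts, CXCL12 was at 282 CPM in C4, 318 CPM in C6 and 17.8 to 45.4 CPM elsewhere, and CXCL14 was at 96.1 to 146 CPM in C1 to C3 and 1.65 to 38.9 CPM in the others.

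The genes whose library pattern came closest to 3 of these profiles were sought among 7829 other named features with a mean of at least 10 CPM, by the root mean square difference of centred log2(CPM + 1) over the 6 libraries. The nearest to CSF1R were FDFT1, an enzyme of cholesterol synthesis (0.25), LOC101113583 (0.32), GCA (0.34), TMEM53 (0.40) and LOC101108131 (0.41), against a median of 1.49 over the candidates. Nearest to the mean of the C1q genes were COPB2 (0.13), QPCT (0.24), NUCB2 (0.24), DNASE2 (0.25) and IFT22 (0.26), of which COPB2 encodes a subunit of the COPI vesicle coat and QPCT an enzyme that modifies peptide hormones. CD74 had OVAR-DRB1 as its nearest gene (0.16), and LOC101109747, the DRA row, was at 0.26, with DUSP6 (0.23), CYTH2 (0.27) and LOC101109322 (0.27) as the others. The 6 points, each shared by all genes of a library, make such likeness a description only.

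Genes of cell types other than macrophages also differed between the libraries, not all in the same direction. In C6, the highest library for CSF1R, TYROBP, AIF1 and CTSS, all 3 oligodendrocyte genes and all 4 Schwann cell genes with a row were called with their highest level, at 7.49 to 22.4 times and 5.49 to 126 times the next library, although 1 of the 3 and 3 of the 4 reached 60 counts only with those of C6. Astrocyte genes summed to 677 CPM in C6, 467 to 659 CPM in C1 to C3, 51.7 CPM in C4 and 25.6 CPM in C5. Folliculostellate and stem cell genes, led by S100B, which glia also express, summed to 9579 CPM in C6, 3323 to 4540.2 CPM in C1 to C3, 474 CPM in C4 and 648 CPM in C5. Endothelial genes summed to 190.4 CPM in C4, 168 CPM in C6 and 25.6 CPM in C5, with 82.1 to 132 CPM in C1 to C3, and general neuron genes to 4751 to 5231 CPM in C1 to C3 and 313 to 668 CPM in C4 to C6. Their part in the levels of the 9 genes was not tested, and the make-up of the tissue piece cannot be told apart from a difference between animals in these libraries.

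The ratio of highest to lowest library was also taken under other scalings. The ratios under TMM, DESeq2 size factors and totals without the hormone genes stayed within the counting interval for all 9 genes. In the authors' TPM they were larger for TYROBP (8.57), C1QB (17.5), CD68 (7.01), CTSS (6.39) and CD74 (32.6), beyond the counting interval of the CPM ratio. The median log2 ratio of TPM to CPM over features with counts in all libraries ran from -2.07 in C1 to -0.90 in C5, a shift of 1.17 that raises C4 to C6 against C1 to C3 for a typical gene. The highest library of each of the 9 genes was the same on all 5 scales. Each of C4 to C6 lay above each of C1 to C3 for 7 of the 9 genes in CPM, where 20.2% of all features tested were called and did so, for 8 under TMM and DESeq2 scaling, and for 9 in TPM and with totals that leave out the hormone genes. The share of all features tested rose on the same scales, to 21.8% under TMM, 24.2% under DESeq2 scaling, 25.9% without the hormone genes and 32.4% in TPM. TYROBP and CD68 were the genes that moved. The order was read from the levels alone. For AIF1 in CPM, C4 was not separated from C1 (1.17 times, 0.622 to 2.20), C2 or C3. For CSF1R neither C4 nor C5 was separated from C2. C1QA, C1QB, C1QC, CTSS and CD74 kept the order beyond counting error in CPM.

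**Figure D5:**
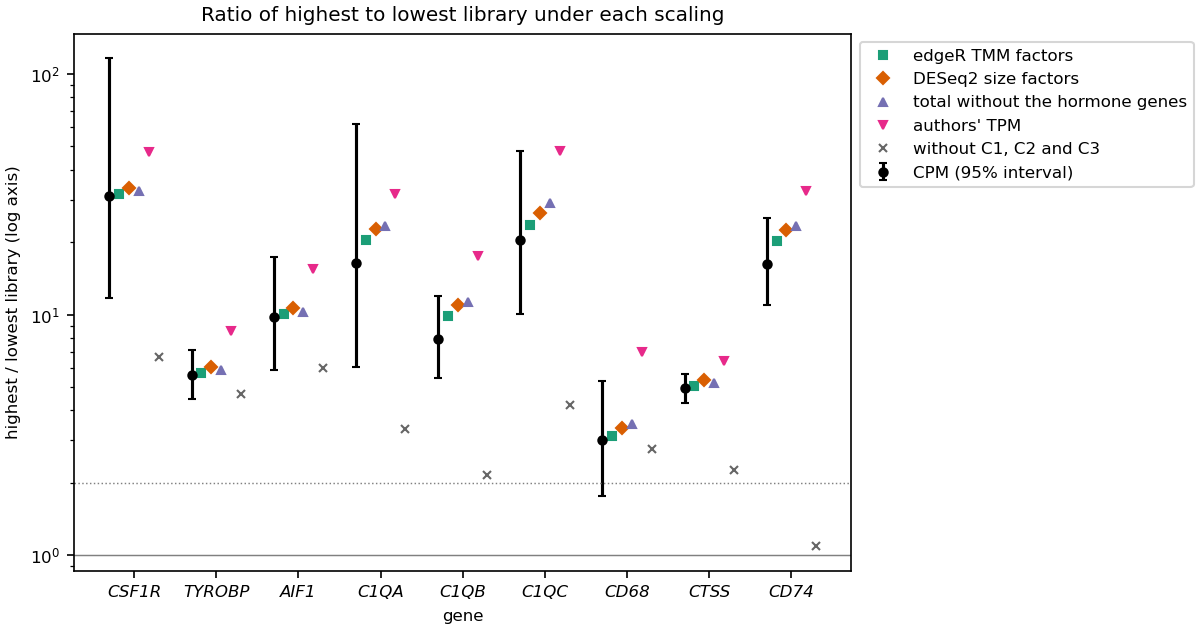
Ratio of the highest to the lowest library for each of the 9 genes on a log axis, in CPM with 95% intervals, under 4 other scalings, and over C4 to C6 alone (crosses). The solid line marks a ratio of 1 and the dotted line the minimum of 2, and CD74 falls from 16.3 over the 6 libraries to 1.09 over C4 to C6.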

How the data were processed

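Per the labels, total RNA of the pituitary was made into full-length complementary DNA libraries using SQK-PCS109 together with SQK-PBK004, kits that amplify by PCR without molecular identifiers. The submitters' processing notes name minimap2 2.17-r941 as a tool. What counted the reads, on which build and annotation and with which strand setting, is not given in the sources used here. The authors' estimated counts are deposited without normalization, and 24.0 to 29.8% of the values of a library are not whole, so they were rounded. The authors' TPM, as deposited, sum to 1000000 per library. In each table, 4 rows of annotation text were left out. RefSeq (ARS-UI_Ramb_v3.0) was used for names and neighbours, and its table holds no sequences.

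CPM is the rounded count over the library total, with 95% Wilson intervals. Ratios of 2 libraries or 2 genes have exact conditional (Clopper-Pearson) intervals. For ratios against 0 counts, 3 counts stood in for the 0. The chi-square test of homogeneity ran over features with at least 60 counts (scipy 1.17.1, statsmodels 0.14.6) and was tested on simulated data. Scaling factors came from edgeR 4.0.16 and DESeq2 1.42.0. No replicates exist, so no spread between animals was available.

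The genes and lists were chosen with earlier results of these data known. Of each list, the 2 measured genes with the highest median CPM and the 2 with the largest ratio were named. Genes named beyond this rule, and the 3 class II rows, were picked with their values already known. Some genes that the rule names are not reported here.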

Additional observations from a re-analysis of the deposited data

Results flagged for a closer look

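Of 10 results examined, the 9 genes and their sum, 5 had 1 library far from the other 5. The gap from that library to its nearest neighbour, divided by the range of the 6 libraries, exceeded the 95% critical value of Dixon's test for 6 values. The labels place the libraries in no group, so the value describes them and is not a test among replicates, for which chance would give about 1 flag in 20. C6 stood above the others for CSF1R (0.869), TYROBP (0.848), AIF1 (0.793) and CTSS (0.678). C4 stood above the others for CD68 (0.635), a gene that overlaps EIF4A1, itself at 52.1 CPM in C4, 40.9 CPM in C5 and 6.22 to 26.2 CPM in the other 4. The part of that overlap in the value was not tested.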

How the results depend on the processing

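All 9 genes were called under the 3 other scalings, in TPM, without rounding, after thinning, with minimums of 20 counts and of none, and at ratio thresholds of 1.5 and 3. With a minimum of 200 counts, 6 were tested and all 6 called. Leaving out 1 library at a time gave 7 to 9 called genes. Without C4, CD68 was lost. Without C5, C1QA fell under the count minimum. Without C6, CSF1R fell under the minimum and TYROBP, with a ratio of 1.70, was not called. Without C6 the ratios of CSF1R, AIF1 and CTSS were 4.92, 2.83 and 2.27. Without C1, C2 and C3, an alternative chosen after the values were seen, 8 were called. For CSF1R, C1QA and CD68 that call was in part fixed by the count minimum. The ratio of the summed level was 8.23 in TPM and 1.87 without C1, C2 and C3, and ranged from 3.53 to 5.90 with 1 library left out. A pseudocount of 0.1 CPM kept 3 of the 5 nearest genes for each profile, and TMM factors kept all 5. Of the counts for 28 gene lists, 10 were lower by over 1.5 times with a minimum of 200 counts, 11 without C1 to C3 and 6 without C6, and 8 were higher with no minimum. No paired analysis was possible because the labels give no groups and no replicate numbers. Depth limits CSF1R and C1QA in C1, C2 and C3, which rest on 4 to 10 counts.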
